A study of Drosophila melanogaster with 9 samples.

Results

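Origin recognition and replication licensing genes encode the proteins that mark replication origins and load the helicase onto them. The set held 9 Drosophila genes, given by name: Orc1, Orc2, lat (the gene of the third origin recognition subunit), Orc4, Orc5, Orc6, Cdc6, dup (double parked, the Cdt1 gene) and geminin. A probe set that the array annotation pairs with that gene alone was found for 6 of them, Orc1, Orc2, Orc4, Orc5, Cdc6 and dup, out of 11981 genes measured in this way. The probe set of lat is listed jointly with CG34315, an overlapping gene, so its signal cannot be given to lat. For Orc6 and geminin no probe set was listed, and these 3 genes were not analysed here. Each of the 6 measured genes had a single probe set, so no choice between probe sets entered their values.

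Expression was measured on 9 Affymetrix Drosophila_2 arrays of total RNA, with 3 arrays for each genotype: wild type, OGA mutant and SXC mutant. Oga encodes the enzyme that removes O-linked N-acetylglucosamine (O-GlcNAc) from proteins. The transferase that attaches this sugar is the product of sxc (super sex combs). The labels give the genotype as WildType, OGA mutant or SXC mutant and state no allele, strain background, tissue, stage, age or sex, nor whether the replicates came from separate animals, so p-values measure the spread between these arrays, which may be technical. The title of the series concerns nutrient-responsive oogenesis.

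A few facts of the whole series bear on the licensing genes. The medians of the arrays were 5.96 to 6.04 (log2), and precision is limited by having 3 arrays per genotype. Each mutant showed a lower level of the gene it is named for: Oga read 8.75 to 8.90 in the OGA mutant against 9.68 to 10.13 in wild type, and sxc 10.32 to 10.36 in the SXC mutant against 11.79 to 11.87. Whether those probes lie in the altered part of either gene is not known here. Markers of the ovary were low on all arrays. Of 7 female germline markers 1, the broadly expressed gene gus, was above the median of all genes (7.50). The means of bam (4.95), vas (4.83), nanos (4.80) and otu (4.31) lay under the 25th percentile of genes (5.19). Those of osk (5.94) and bcd (5.93) lay between that percentile and the median. The 6 measured eggshell and follicle cell markers (means of 5.66 to 7.43), the 6 testis markers (3.94 to 4.86), the 4 accessory gland markers (3.93 to 4.69) and the 2 measured muscle markers (4.91 and 5.14) were all below that median. Above it lay 1 of the 2 measured neuronal markers, elav (8.24), and 1 of the 3 measured imaginal disc markers, dpp (7.61). No yolk, larval fat body or photoreceptor marker measured was above it. The tissue behind the arrays is not stated.

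In eukaryotes a licensed origin is built in steps during late mitosis and early interphase. The origin recognition complex, a ring of subunits of which several are AAA+ ATPases, sits on DNA and is joined by Cdc6, also an AAA+ ATPase. Cdc6 and Cdt1 then bring in the Mcm2-7 helicase. Geminin binds Cdt1 and blocks loading after S phase has begun, and Cdt1 is destroyed in S phase by a Cul4 ubiquitin ligase, so each origin fires once per cycle. In Drosophila follicle cells the chorion gene amplification of the ovary depends on Orc2 and on dup.

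Wild type and the SXC mutant were compared to ask which transcripts differ when the O-GlcNAc transferase gene is altered. Orc1 and Cdc6 fell, and all 6 measured genes had lower means in the mutant. Orc1, whose product is the large ATPase subunit of the origin recognition complex, read 9.37, 9.24 and 9.31 on the wild-type arrays and 8.91, 8.92 and 9.10 on the SXC mutant arrays (replicates 1, 2 and 3). Every mutant array lay below every wild-type array. Wild type averaged 9.31 ± 0.07 and the mutant 8.98 ± 0.11 (SD, n = 3), a log2 difference of −0.33 (SE 0.08), which is 1.25-fold (limma adjusted p = 0.0178, over all 11981 genes). Cdc6, the helicase loading ATPase, read 9.61, 9.45 and 9.55 in wild type and 9.14, 9.25 and 9.31 in the SXC mutant, again with no overlap. Its log2 change was −0.30 with SE 0.07, which is 1.23-fold (limma adjusted p = 0.0204).

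**Figure D1:**
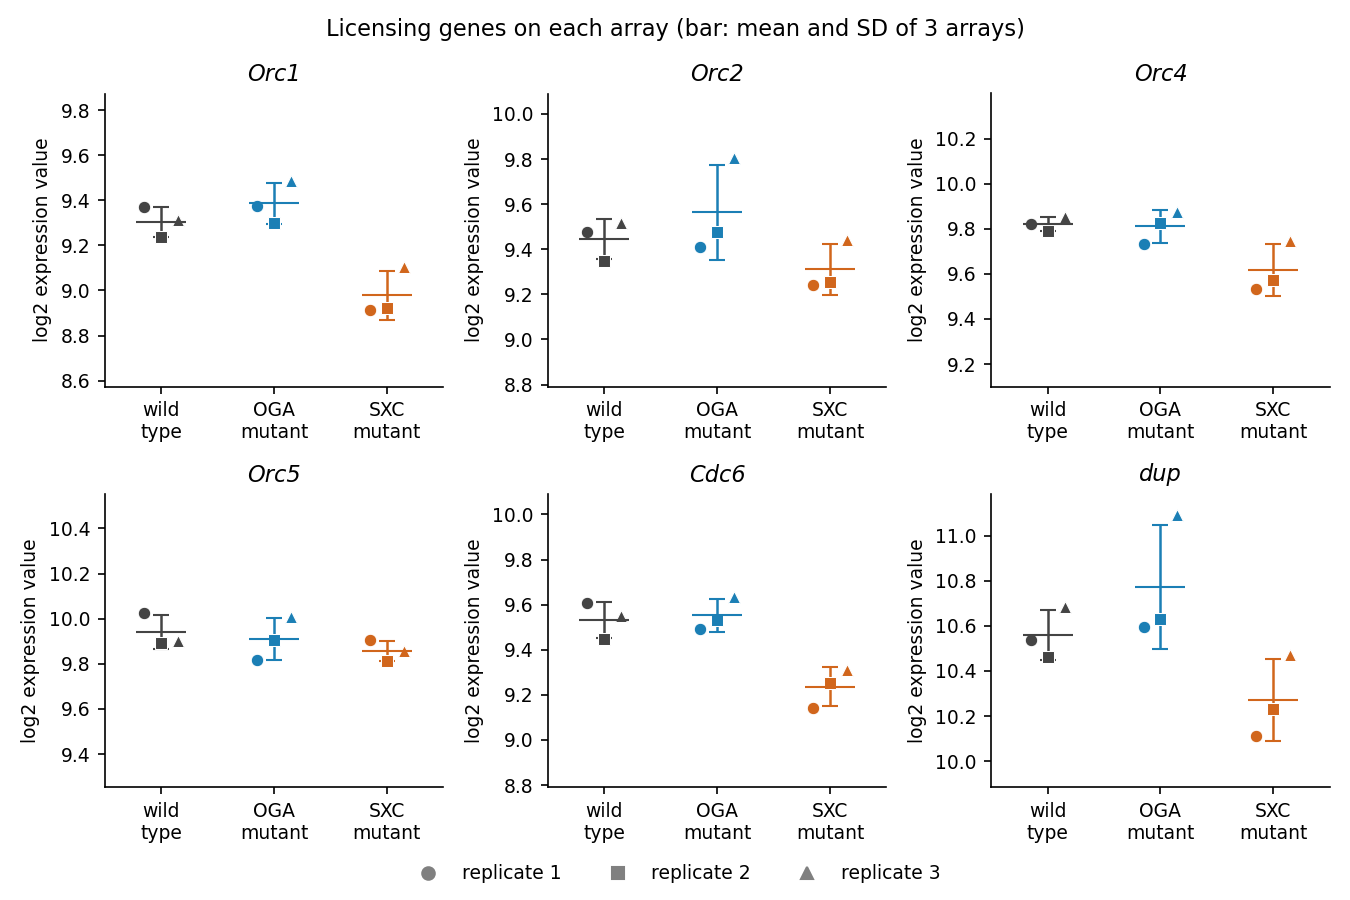
Log2 expression value (vertical axis, the same span of 1.3 in each panel) of the 6 measured licensing genes on each of the 9 arrays, by genotype (horizontal axis); symbols mark the replicate number, and bars give the mean and SD of 3 arrays. Orc1, Orc4 and Cdc6 have all 3 SXC mutant arrays below all 3 wild-type arrays, and OGA mutant replicate 3 is the highest array of its group in every panel.

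The other 4 genes did not pass the test against wild type. Orc4, the gene of a further ATPase-fold subunit, read 9.82, 9.79 and 9.85 in wild type and 9.53, 9.57 and 9.75 in the SXC mutant. These groups did not overlap, but the difference of −0.20 (SE 0.07) had a limma adjusted p of 0.0924. The Cdt1 gene dup read 10.54, 10.46 and 10.68 in wild type and 10.11, 10.23 and 10.47 in the mutant. Its highest mutant array reached above the lowest wild-type array by less than 0.01, and the difference of −0.29 had an SE of 0.13 (limma adjusted p = 0.192). The size for dup is thus like that of Cdc6, with a wider spread between arrays.

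Orc2 and Orc5 showed the smallest differences. Orc2, a core subunit of the complex, read 9.48, 9.35 and 9.52 in wild type and 9.24, 9.25 and 9.44 in the SXC mutant. The groups overlapped through SXC mutant replicate 3, and the difference was −0.14 with a 95% interval from −0.36 to 0.09 (limma adjusted p = 0.464). Orc5, another AAA+ subunit gene, read 10.03, 9.89 and 9.90 in wild type and 9.90, 9.81 and 9.85 in the mutant. Its difference of −0.08 had an interval from −0.24 to 0.07 (limma adjusted p = 0.518), so a fall larger than 1.18-fold lies outside the interval while a smaller one does not. The differences between the members' changes were not tested.

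In counts, 2 of 6 members fell and 0 rose, against 7.84% of all genes lower and 5.09% higher (12.9% either way) in the same test. All 6 differences were negative, as were 51.8% over all genes, and 4 of 6 had an unadjusted p under 0.05, against 26.1%. Groups that did not overlap, with the mutant lower, were found for 3 of 6 members and for 18.7% of all genes, and with the mutant higher for 0 members and 14.0%. The median difference was −0.25 for the members and −0.01 for all genes. With 6 members these counts are a description, and nothing particular to the set is drawn from them. Whether there were fewer replicating cells in the SXC mutant samples or less of these transcripts per cell cannot be told apart in RNA from whole samples.

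**Figure D2:**
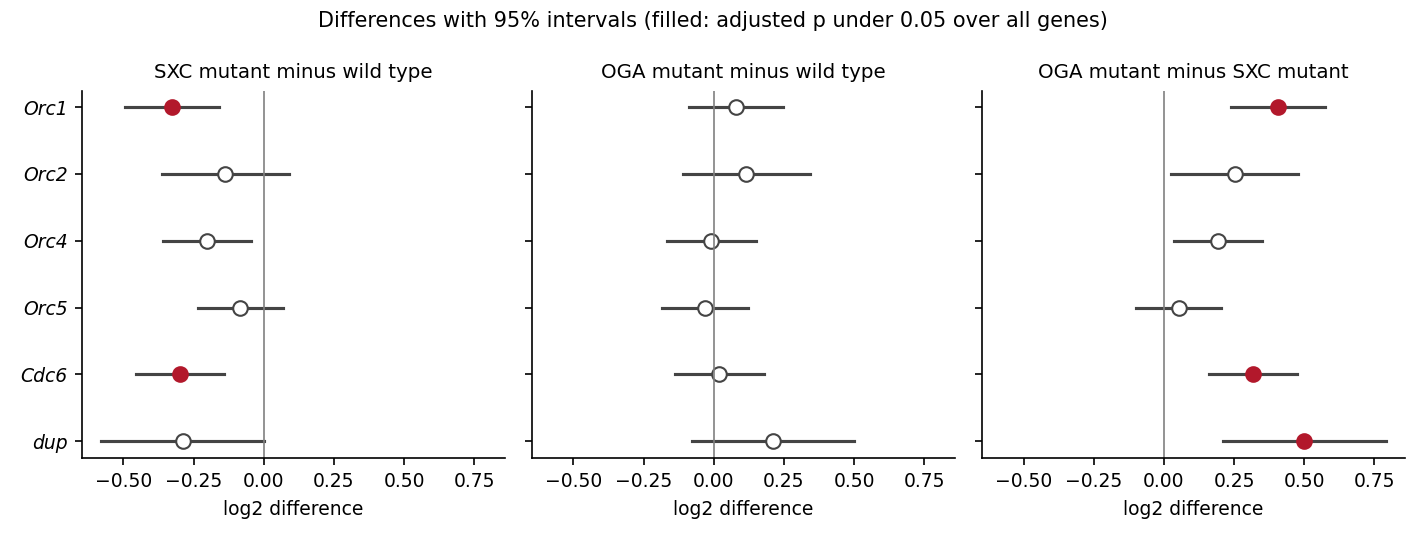
Log2 difference (horizontal axis) of the 6 measured licensing genes (vertical axis) in the comparisons of the 3 genotypes, with 95% intervals from limma; filled points passed an adjusted p of 0.05 over all genes. Orc1 and Cdc6 passed in the SXC mutant against wild type, no member passed in the OGA mutant against wild type, and Orc1, Cdc6 and dup passed between the mutants.

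Both calls against wild type depended on single arrays. Orc1 had a limma adjusted p of 0.0789 when the first wild-type array was dropped, 0.0630 and 0.0679 when the first or the second SXC mutant array was, and 0.0577 when variances were not moderated. Cdc6 had 0.0904 and 0.0577 when the first or the third wild-type array was dropped, 0.0712 and 0.0545 when the first or the second SXC mutant array was, and 0.0532 with unmoderated variances. The number of members called was then 0, and 1 (Orc1, adjusted p = 0.0498) without wild type replicate 3. The sizes moved less: over the 20 alternatives the change of Orc1 lay between −0.39 and −0.28 and that of Cdc6 between −0.34 and −0.23. For Orc4 the adjusted p was 0.0405 without SXC mutant replicate 3 and 0.0237 with array quality weights.

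**Figure D3:**
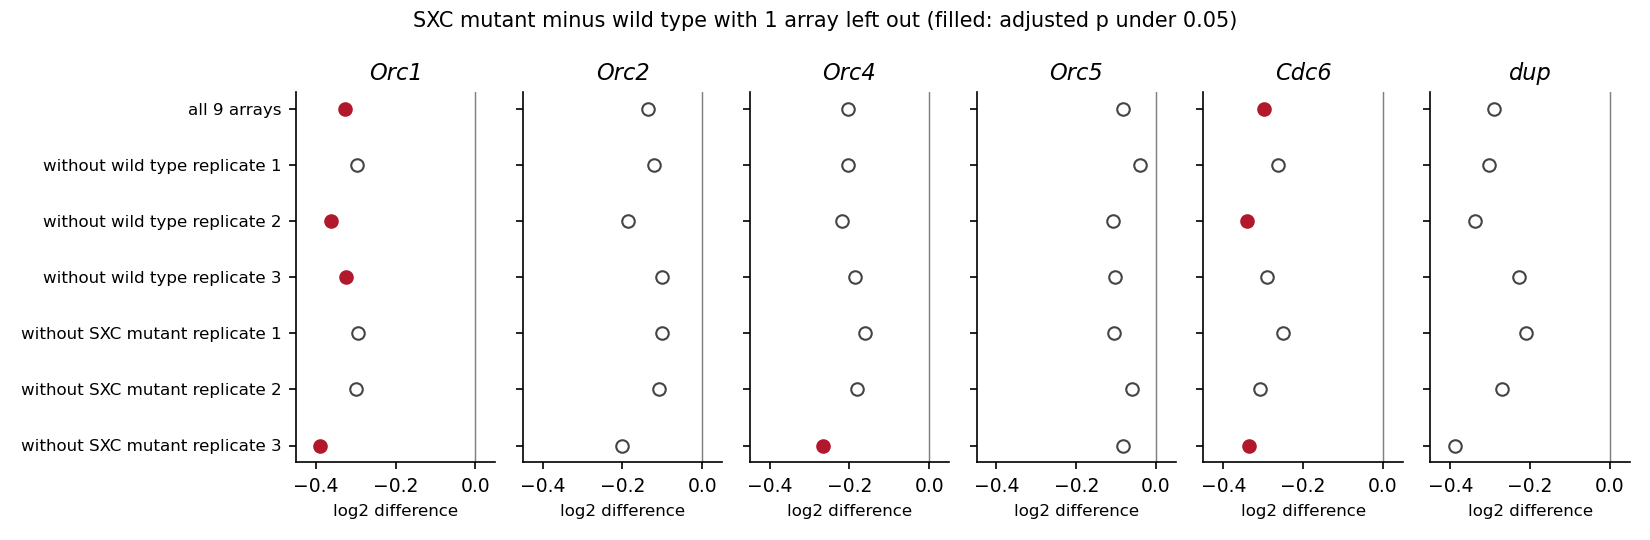
Log2 difference between the SXC mutant and wild type (horizontal axis) for each of the 6 genes with all 9 arrays and with each array of these groups left out in turn (vertical axis); filled points passed an adjusted p of 0.05 over all genes. Points stay left of 0 in every row. The filled points of Orc1 and Cdc6 turn open without wild type replicate 1 and without SXC mutant replicate 1 or 2. That of Cdc6 also turns open without wild type replicate 3, and the open point of Orc4 turns filled without SXC mutant replicate 3.

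Other measures differed between these groups too. For GAPDH_r2, a control whose 3′ signal is set against its 5′ signal as a sign of RNA quality, the gap on the log2 scale was 2.74 to 3.29 on the SXC mutant arrays, 1.79 to 2.31 in wild type and 2.01 to 2.25 in the OGA mutant. For the actin control Act5C_r2 it was 0.70 to 0.80 in the SXC mutant, 0.72 to 0.78 in wild type and 0.56 to 0.76 in the OGA mutant. For the other GAPDH control it was 1.08 to 1.24, 0.91 to 1.12 and 0.97 to 1.02 in that order. For the eIF-4a control it was 0.11 to 0.26, 0.20 to 0.31 and 0.005 to 0.23. For the other actin control, ACTIN, it was −0.01 to 0.05, −0.01 to 0.08 and −0.15 to 0.045. Of the 7 germline markers 1 passed, nanos, which rose (5.09 against 4.61), and 5 of the 7 differences were positive. Those that did not pass were osk (0.33, limma adjusted p = 0.0644), bam (0.13), gus (0.10), bcd (0.01), otu (−0.01) and vas (−0.16). Of the 2 measured neuronal markers elav fell (7.93 against 8.28) and nSyb had −0.06, and of the 2 measured muscle markers up rose (5.41 against 4.98) and Mlc2 had 0.13. No marker of the other lists passed, and over all genes 12.9% did. The array means of the 7 germline markers were 5.975 to 6.073 in wild type, 6.0005 to 6.081 in the OGA mutant and 6.087 to 6.201 in the SXC mutant. Those of the 2 measured neuronal markers were 7.01 to 7.08, 7.10 to 7.30 and 6.73 to 7.02 in the same order, and those of the 2 muscle markers 4.88 to 4.92, 4.80 to 5.13 and 5.09 to 5.35. The part of these measures in the lower licensing transcripts was not tested.

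In the OGA mutant the licensing genes did not pass the test against wild type, and their mean levels lay on both sides of the wild-type means. Of 6 members 0 passed in limma, and 0 had an unadjusted p under 0.05, against 3.91% of all genes at that unadjusted threshold. At the adjusted threshold 1 gene of the whole table, 0.00835%, was called, Oga itself. No member had groups that did not overlap, against 4.23% of all genes with the mutant lower and 4.81% with it higher. The difference was negative for 2 of 6 members and for 50.3% of all genes. The largest difference was that of dup, which read 10.60, 10.63 and 11.09 in the OGA mutant, a difference of 0.21 from wild type with SE 0.13 (limma adjusted p = 0.975).

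The remaining members lay closer to wild type. Orc2 read 9.41, 9.48 and 9.80 in the OGA mutant, and Orc1 read 9.37, 9.30 and 9.48. Their differences from wild type were 0.12 (SE 0.10) and 0.08 (SE 0.08), with intervals from −0.11 to 0.34 and from −0.09 to 0.25. OGA mutant replicate 3 was the highest array of its group for all 6 members, Orc2 and dup among them, against 39.2% of all genes. Cdc6 read 9.49, 9.53 and 9.63, a difference of 0.02 with an interval from −0.14 to 0.18. Orc4 read 9.73, 9.83 and 9.87, a difference of −0.01 with an interval from −0.17 to 0.15. Orc5 read 9.82, 9.91 and 10.01, a difference of −0.03 with an interval from −0.18 to 0.12. These intervals leave room for changes of up to 1.41-fold for dup and 1.13-fold for Cdc6. Without OGA mutant replicate 3 the difference of dup was 0.05 and that of Orc2 −0.00.

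Set against each other, the mutants differed in 3 of the 6 members, all higher in the OGA mutant, against 7.79% of all genes higher and 3.98% lower there (11.8% either way). All 6 differences were positive, while 47.7% were negative over all genes, and 5 of 6 had an unadjusted p under 0.05, against 26.6%. This comparison tests the difference between the mutant effects, which share the wild-type arrays. Orc1 was 0.41 higher (SE 0.08, 1.33-fold, limma adjusted p = 0.00784), dup 0.50 higher (SE 0.13, 1.41-fold, limma adjusted p = 0.0321) and Cdc6 0.32 higher (SE 0.07, 1.25-fold, limma adjusted p = 0.0173). For each of these genes all 3 OGA mutant arrays lay above all 3 SXC mutant arrays, which was the case for 18.5% of all genes, while 11.7% were separate the other way. Orc2 (0.25, SE 0.10, limma adjusted p = 0.142), Orc4 (0.19, SE 0.07, limma adjusted p = 0.110) and Orc5 (0.05, SE 0.07, limma adjusted p = 0.681) did not pass. The groups of Orc2, Orc4 and Orc5 overlapped.

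Orc1 passed between the mutants under all 20 alternatives, while Cdc6 and dup did not. The call of dup ended without OGA mutant replicate 3 (difference 0.34, limma adjusted p = 0.0852), without the first (0.121) or the second (0.0950) SXC mutant array, with unmoderated variances (0.142) and when only both mutants were fitted (0.0662). The call of Cdc6 ended without OGA mutant replicate 3 (0.0589), without SXC mutant replicate 1 (0.0626) and with no moderation (0.0574). The count of members called was then 1, or 2 where dup alone was lost. Without SXC mutant replicate 3 Orc4 also passed (0.0465), and the count was 4.

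For all members except Orc4 and Orc5 the order of the means was the same, with the SXC mutant lowest, wild type between and the OGA mutant highest. In Orc4 and Orc5 wild type was highest. No neighbouring pair of wild type and OGA mutant differed in the test for any member. For Orc4 and Orc5 the other neighbouring pair was the OGA mutant and the SXC mutant, which did not differ in the test. Wild type and the SXC mutant differed in the test only for Orc1 and Cdc6.

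Within a genotype, too, the same arrays tended to be high or low for several members. OGA mutant replicate 3 was the highest of its group in 6 of 6 members, against 39.2% of all genes, and wild type replicate 2 was the lowest of its group in 6 of 6, against 29.8% of all genes. In the SXC mutant, replicate 1 was the lowest array in 5 of 6 members, against 30.6% of all genes, and replicate 3 the highest in 5 of 6, against 32.2%. Orc5 was the exception on both counts, with its highest SXC mutant value on replicate 1. Relative to each gene's mean over the 9 arrays, the members averaged 0.27 on OGA mutant replicate 3, against 0.02 and 0.06 on replicates 1 and 2. The SXC mutant arrays had −0.24, −0.21 and −0.06 for replicates 1, 2 and 3, and the wild-type arrays 0.09, −0.02 and 0.09. The median of all genes lay between −0.02 and 0.01 on every array. The array quality weights were 0.45 for OGA mutant replicate 3 and 0.41 for SXC mutant replicate 1, the lowest given. They were 3.31 for wild type replicate 2 and 0.93 for SXC mutant replicate 3. The part of array quality in these shared highs and lows was not tested.

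**Figure D4:**
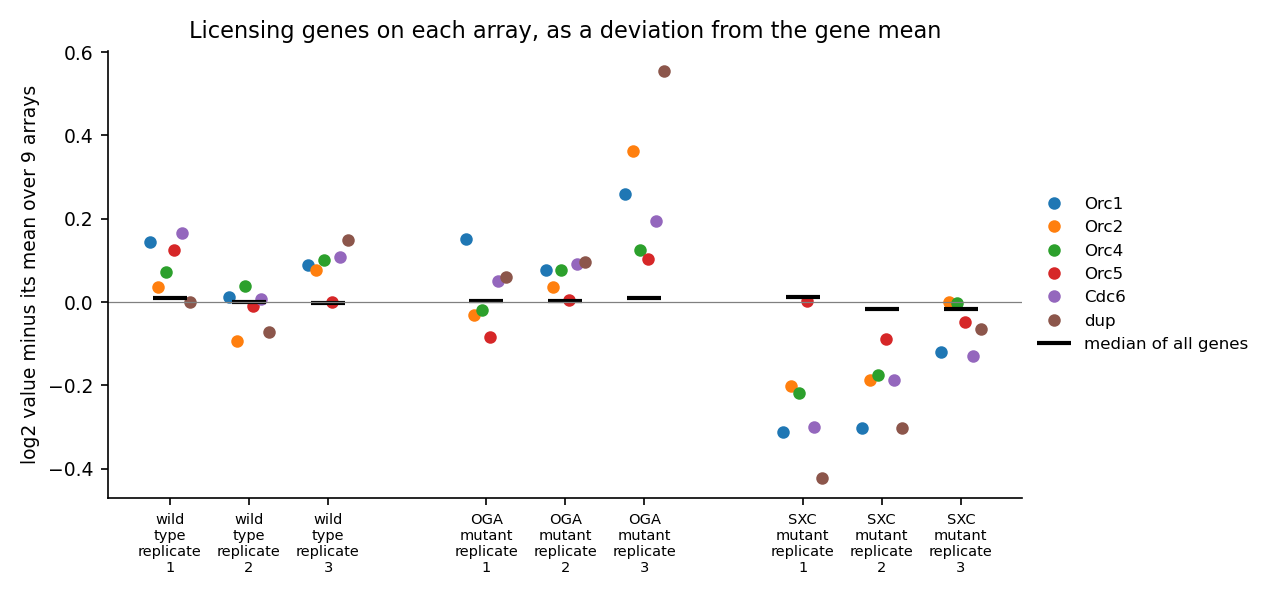
Log2 value of each measured licensing gene minus its own mean over the 9 arrays (vertical axis), by array (horizontal axis); black dashes give the median of all genes on that array. All 6 members lie above 0 on OGA mutant replicate 3, where dup reaches 0.55, and at or below 0 on SXC mutant replicates 2 and 3, with Orc5 nearest to 0 on SXC mutant replicate 1.

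The members spread around their shared profile by different amounts. The root mean square difference between a member's centred values and the mean profile, over 9 arrays, was 0.05 for Cdc6 and Orc2, 0.06 for Orc4, 0.07 for Orc1, 0.12 for Orc5 and 0.13 for dup. The centred values of dup ran from −0.42 to 0.55, and those of Orc5 from −0.09 to 0.12. Of 5984 other genes above the median level, those nearest to the mean profile were CG3430, Cep135, Dref, Prp40 and Rrp45, with root mean square differences of 0.029, 0.033, 0.038, 0.038 and 0.039. The median candidate had 0.16. Dref encodes a factor that binds a DNA element found upstream of many Drosophila replication genes, Cep135 a centriole protein, Prp40 a splicing factor and Rrp45 an exosome subunit. This likeness over 9 arrays that share genotypes and processing is a description. Against wild type the SXC mutant differed by −0.20 in CG3430, −0.20 in Cep135, −0.20 in Dref, −0.27 in Prp40 and −0.19 in Rrp45. They were chosen on these same arrays, so their differences follow from the choice and are given without a test.

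Genes that act with the licensing factors were taken from 4 lists, chosen with earlier results of these data known. Of 13 measured genes that control loading, 1 fell in the SXC mutant and 0 rose, with a median of −0.00. That count is near the share of all genes that were lower, 7.84%. It was Cdk2, the S-phase kinase gene (−0.83, SE 0.14, 1.78-fold, limma adjusted p = 0.00358). Of the 13 differences 7 were negative and 6 positive. Among the Cdt1 ligase genes, l(2)dtl, the Cdt2 substrate receptor, had −0.35 (SE 0.11, limma adjusted p = 0.0685). The scaffold gene Cul4 had −0.00 and the adaptor gene pic 0.02. The ring finger subunit gene Roc1a had 0.15 (SE 0.09, limma adjusted p = 0.367). Its SXC mutant arrays all lay above its wild-type arrays, as for 14.0% of all genes. The Dbf4-dependent kinase genes Cdc7 and chif had −0.28 (SE 0.11, adjusted p = 0.121) and −0.06. Rif1, also of this list, had −0.29 (SE 0.09, limma adjusted p = 0.0713). The values from l(2)dtl to Rif1 were picked for their role at Cdt1 and the origin, after they were seen.

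The helicase that the licensing factors load, with its activators, showed a median difference of −0.30, and 7 of 13 measured genes fell and 0 rose, where 7.84% of all genes were lower and 5.09% higher. Those with the smallest p were Mcm6 (−0.99, SE 0.11), Psf2 (−0.45, SE 0.07), Sld5 (−0.43, SE 0.08) and Mcm2 (−0.41, SE 0.10). Of 23 measured replication fork genes 11 fell and 0 rose, with a median of −0.29, beside the same shares of all genes. PolD2, a polymerase delta subunit gene, fell by 0.60 on the log2 scale, PCNA, the sliding clamp gene, by 0.52, the fork list member CG8142 by 0.40 and RPA3, of the single-strand binding complex, by 0.39. In E2F and dREAM, regulators of S-phase gene transcription, 1 of 9 measured genes fell, beside 7.84% of all genes, with a median of −0.15. It was lin-52 (−0.77, SE 0.09, limma adjusted p = 0.00105). The licensing genes, at −0.08 to −0.33, lay within the spans of all 4 lists, so these spans single out no list. The spans were −0.83 to 0.15 for loading control and −0.99 to −0.04 for the helicase. They were −0.60 to −0.01 for the fork and −0.77 to −0.07 for E2F and dREAM.

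In the OGA mutant against wild type 0 genes of these 4 lists passed in limma, with medians of 0.02, 0.06, −0.01 and 0.02 in the order above. At an unadjusted p under 0.05 there was 1 among their 13, 13, 23 and 9 measured genes, the fork gene RPA3 (−0.14, SE 0.06). Since 3.91% of all genes passed that unadjusted threshold, nothing is drawn from this. The smallest p of the other lists belonged to Roc1a (−0.17, SE 0.09), Sld5 (−0.16, SE 0.08) and Dp (0.13, SE 0.08). Between the mutants 3 of the 13 loading control genes were higher in the OGA mutant and 1 lower, where 7.79% of all genes were higher and 3.98% lower. The higher ones were Cdk2 (0.76), l(2)dtl (0.45) and Cdc7 (0.42), and the lower one was Roc1a, a ring finger subunit gene of cullin ligases (−0.31, limma adjusted p = 0.0492). Of the helicase list 6 of 13 were higher: Mcm6 (1.09), Mcm2 (0.49), Mcm3 (0.42), Cdc45 (0.42), dpa (0.39) and Psf2 (0.33). Of the fork list 9 of 23 were higher, among them PolD2 (0.60), PCNA (0.49), Prim2 (0.45) and Prim1 (0.50), and of the E2F and dREAM list lin-52 (0.69) was.

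**Figure D5:**
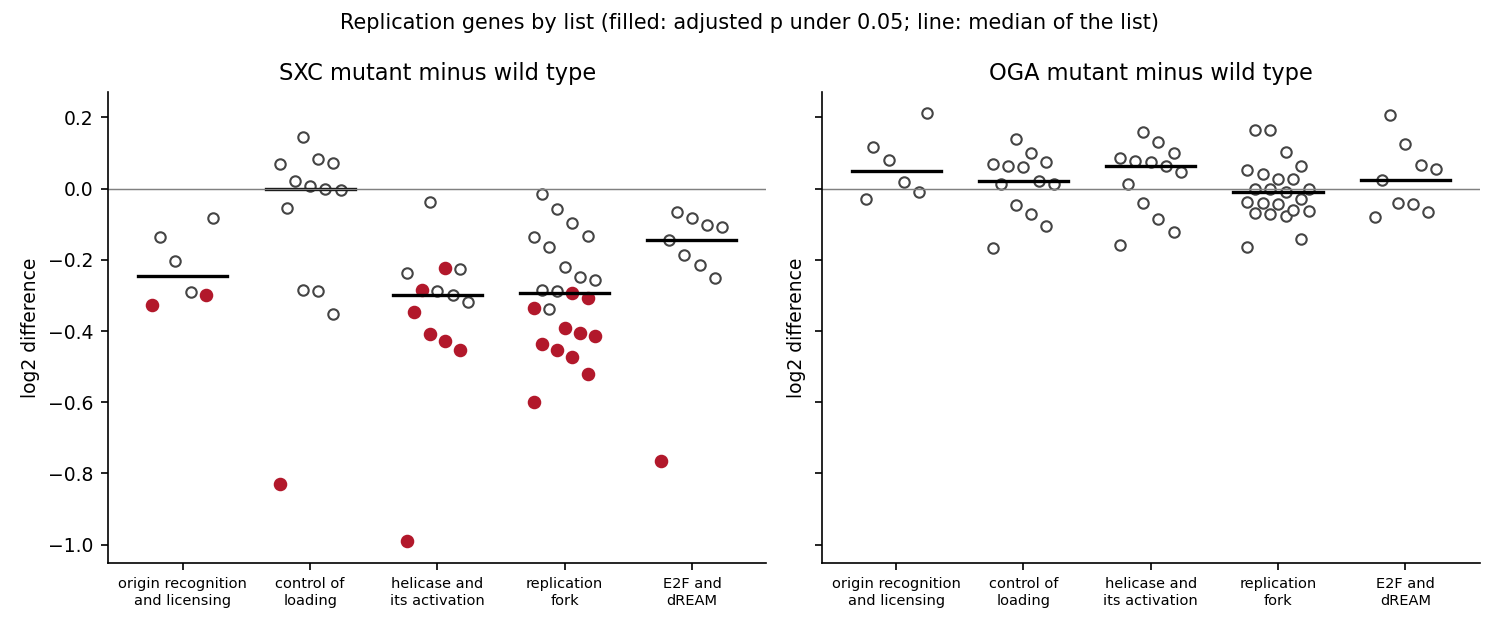
Log2 difference (vertical axis) of single genes in 5 lists (horizontal axis) for the SXC mutant minus wild type (left) and the OGA mutant minus wild type (right); filled points passed an adjusted p of 0.05 over all genes, and lines give list medians. Medians in the SXC mutant are −0.25 for licensing, −0.00 for control of loading, −0.30 for the helicase, −0.29 for the fork and −0.15 for E2F and dREAM, and no point is filled in the OGA mutant.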

How the data were processed

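Total RNA of 9 samples was measured on 1-colour Affymetrix arrays. The deposited values are log2 expression values, 1 per probe set and array, a scale read from the values themselves (3.43 to 15.36, with nearly equal quartiles); per the submitters' processing notes MAS5, RMA and Partek were used, with no role or version. Of 18952 probe sets, 183 were controls, 4721 had no gene listed, 402 had several and 13646 had 1. Old symbols were updated through the Entrez identifier (13543 probe sets) or the symbol (6) to the RefSeq annotation of Release 6 plus ISO1 MT, and 97 kept the listed name. The brightest probe set stood for each gene, which left 11981 genes. All sample columns were mapped (0 unmapped).

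The genotypes were fitted with limma 3.58.1 (R 4.3.3), as group means over all 9 arrays (6 residual and 5.17 prior degrees of freedom), with Benjamini-Hochberg adjustment over all genes and a threshold of 0.05. The code was tested on simulated data. Intervals are limma's at 95%. All 9 members were to be named, with up to 4 called genes of each pathway list by smallest p, and the 5 genes nearest to the mean profile. The members and lists were chosen with earlier results of these data known. The planned difference between dup and geminin was not computed, because no probe set was listed for geminin. Alternatives were quantile normalization, median centring, a filter at the 25th percentile, a trended robust prior, array weights, no moderation, a replicate block, other probe set rules, fitting only the groups compared, leaving out each array, and removal of the length trend. No sequences were at hand, so none are shown.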

Additional observations from a re-analysis of the deposited data

How the results depend on the processing

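In the SXC mutant against wild type the number of members called, 2, was 0 with no moderation and 0 to 3 with 1 array left out. Between the mutants the number, 3, was 1 with no moderation and 1 to 4 with 1 array left out. In the OGA mutant against wild type it was 0 under all 20 alternatives. The remaining settings moved these counts by no more than 1.5 times, and no alternative moved the median difference of all genes beyond 0.04. Members with differences near 0 changed sign without being called. For Cdc6 in the OGA mutant against wild type the difference was −0.0119 with quantile normalization, −0.0202 with median centring, and −0.0236 to 0.0555 with 1 array left out. For Orc4 there it was 0.0031 with array quality weights and −0.0410 to 0.0305 with 1 array left out. With 1 array left out Orc5 ranged from −0.0779 to 0.0153 and Orc2 from −0.0042 to 0.193. Between the mutants Orc5 was −0.0120 with quantile normalization. The cause of these changes was not tested. Same-numbered arrays of different groups had deviations that correlated at −0.22 to 0.29 across genes, so the numbers are not taken to pair the arrays; with the replicate block the counts of members called were 2, 0 and 3 as before, and 1261 genes in all were called in the SXC mutant against wild type in place of 1549. Over all genes in that comparison the count was 664, 1027 and 1132 when wild type replicate 1, 2 or 3 was dropped, and 896 and 984 when SXC mutant replicate 1 or 2 was. It was 2826 under array quality weights and 820 when variances were not moderated. Between the mutants the count over all genes, 1410, was 724 and 793 when SXC mutant replicate 1 or 2 was dropped, 806 when OGA mutant replicate 3 was and 459 when variances were not moderated. Removal of the length trend, added after the data were seen, left the counts of members called at 2, 0 and 3. The planned difference between dup and geminin was not run. With 3 arrays in a group the median SE over genes was 0.08, which limits what can be called among the small differences of these members.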
